A study of Mus musculus with 8 samples.

Results

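The 6 genes described here, Tgm2, Pde8a, Camk2n1, Ppp1r14d, Lrrc31 and Fam183b, were chosen by their transcript levels, which fell strongly in both knockdowns of a mouse embryonic stem (ES) cell experiment. They are 6 of the 18193 genes that the array annotation ties to at least 1 probe set of exactly 1 symbol. The values that chose them are their changes against the control in the Jmjd2b and the Jmjd2c knockdown. Those changes, and the difference between the knockdowns that follows from them, are therefore given as a description, without a test. Where a gene has several probe sets, the one brightest on average across the 8 arrays stands for it.

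All samples are male ES cells of strain 129S4/Svjae in medium with leukemia inhibitory factor, a cytokine that holds ES cells undifferentiated. The groups are 3 samples with an shRNA lentivirus against Jmjd2b, 2 samples with one against Jmjd2c, and 3 control samples with one against GFP. Every group, the control included, went through viral infection, puromycin selection and further passages. Jmjd2b and Jmjd2c (Kdm4b and Kdm4c on the array) are demethylases of histone H3. The labels name no clone, do not say how many hairpins were used per gene, and do not say whether the samples of a group were separate infections. The p-values therefore cover sample-to-sample spread alone, and that spread may be technical. In bulk RNA, fewer cells that express a gene and less of its RNA per cell cannot be told apart.

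As background, the 6 genes act in different places of the cell. Tgm2 is tissue transglutaminase, an enzyme that crosslinks proteins in the presence of calcium and that also binds GTP; in mouse embryonal carcinoma cells it is known as a gene induced by retinoic acid during differentiation. Pde8a is a phosphodiesterase that hydrolyses cyclic AMP with high affinity. Camk2n1 is a small protein that binds and inhibits calcium/calmodulin-dependent kinase II (CaMKII). Ppp1r14d belongs to a family of small inhibitors of protein phosphatase 1 (PP1) that work when phosphorylated, and it was described in gut and brain. Lrrc31 carries leucine-rich repeats and is known in human oesophageal epithelium, where interleukin 13 induces it. Fam183b has a human relative catalogued as a cilia and flagella associated protein.

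RefSeq promoter windows (GRCm38.p6) were at hand for 4 of the 6 genes, Ppp1r14d, Lrrc31, Pde8a and Fam183b. The letters of 8 motifs were searched on both strands in the 250 bases before the start of transcription, overlaps allowed. The motifs were written down after the windows of these genes had been read, so the matches are a description only. GGGNGNGGC, a form bound by Kruppel-like factors (KLF), occurred in 3 of the 4 windows and in 23.3% of all 32851 windows of that length. Lrrc31 held it as the same 9 letters at -125 to -117 and again at -69 to -61, Ppp1r14d held it at -77 to -69 and at -27 to -19 on the opposite strand, and Pde8a held it at -47 to -39. The 130 bases before the start of these 3 genes are shown because they hold all of those matches, which are set in capitals.
Lrrc31 (chr3:30699844-30699973, minus strand): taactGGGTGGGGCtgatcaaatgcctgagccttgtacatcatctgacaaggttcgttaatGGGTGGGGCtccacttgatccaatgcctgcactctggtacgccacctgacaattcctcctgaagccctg
Ppp1r14d (chr2:119229866-119229995, minus strand): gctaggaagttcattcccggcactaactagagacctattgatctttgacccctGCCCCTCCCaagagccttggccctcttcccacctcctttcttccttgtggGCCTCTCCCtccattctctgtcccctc
Pde8a (chr7:81213135-81213264, plus strand): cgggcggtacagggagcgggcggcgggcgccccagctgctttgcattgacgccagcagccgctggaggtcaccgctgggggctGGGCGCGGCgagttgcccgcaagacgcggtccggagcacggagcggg

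The other motifs had no match in the 4 windows. They were CAAGGTCA (the ESRRB motif, in 1.33% of all windows), ATTTGCAT (the octamer, 1.60%), TTCNNNGAA (STAT, 7.02%) and ACGTG (the hypoxia response element, 16.6%). TGATGNAAT (the CEBP-ATF element) occurred in 0.816% of all windows, TGACGTCA (the cyclic AMP response element) in 1.55%, and the retinoic acid element of the DR5 type in 0.00913%. The 4 windows also differed in composition. Pde8a had 27 CG dinucleotides and a GC content of 68.8%, against medians of 6.0 and 52.4% over all windows. Ppp1r14d had 1 CG, Lrrc31 had 3 and Fam183b had 5, with GC contents of 54.0%, 52.8% and 57.6%. A motif of open Gs such as GGGNGNGGC is met more easily in GC-rich sequence, and no match shows binding.

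A short check of the arrays comes before the values. Intensities are the authors' own, on a linear scale, and array medians lay between 44.7 and 46.6. Values under 16 made up 23.9% to 25.4% of each array, and 16 was added before log2, so every log2 change is one of (intensity + 16) and understates changes of dim genes. Kdm4b stood at 3.64% to 10.8% of the control mean on the Jmjd2b knockdown arrays, and Kdm4c at 11.1% and 36.7% on Jmjd2c knockdown arrays 1 and 2. Each knockdown also had the other gene below all controls, with Kdm4c at 50.8% to 62.5% on the Jmjd2b knockdown arrays and Kdm4b at 52.3% and 60.9% on the Jmjd2c knockdown arrays. ES cell markers were bright in all groups: all 8 listed genes, Pou5f1, Sox2 and Nanog among them, had group means well above the array medians. The dimmest, Fgf4, averaged 526 in the Jmjd2b knockdown and 884 in the Jmjd2c knockdown, against 1852 in the control. The summed intensity of the 8 was 45516 to 48514 in the Jmjd2b knockdown and 48916 to 48954 in the Jmjd2c knockdown, against 57906 to 58599 in the control. For 10 markers of fibroblast feeder cells the sums were 720 to 784, 799 to 937 and 958 to 1140 in the same order, but single markers went both ways. Thy1 averaged 36.0, 35.3 and 114 and Pdgfrb 137, 198 and 378, while Col1a1 averaged 55.9, 25.7 and 12.5, S100a4 38.8, 25.3 and 15.3 and Dcn 27.2, 26.5 and 18.3, and Postn was under 16 on every array. Markers of other lineages also differed between the groups. Of 6 trophectoderm markers, Cdx2 averaged 442 in the Jmjd2b knockdown, 23.6 in the Jmjd2c knockdown and 4.24 in the control, Eomes 832, 235 and 169, and Gata3 43.5, 58.9 and 4.59, while Krt7 averaged 71.0, 57.3 and 152. The sums of the 6 overlapped between groups, at 3405 to 4124, 3307 to 4172 and 3272 to 3878. Among 6 neural markers, summing to 847 to 1130, 862 to 1169 and 794 to 903, Pax6 averaged 118, 159 and 33.4, and Sox1 66.3, 97.1 and 142. Among 6 primitive endoderm markers, summing to 184 to 237, 113 to 295 and 130 to 161, Foxa2 averaged 92.6, 69.0 and 13.1. The actin control probe sets, read at both transcript ends for RNA integrity, gave a 3' over 5' ratio of 1.31 to 1.42 and 1.43 to 1.48 in the knockdowns, against 1.45 to 1.63 in the control. Those of Gapdh gave ratios that overlapped between the groups, at 0.937 to 0.987, 0.943 to 0.987 and 0.936 to 0.980 in the same order. The part of the group differences above in the results below was not tested. Control arrays 1 and 2 and Jmjd2b knockdown array 2 hold 412 to 455 values of exactly 1 and at most 2 below it, and the other 5 arrays hold 7 to 11 of exactly 1 and 172 to 241 below it; this is called the array type below.

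Both enzymes among the 6 genes, Tgm2 and Pde8a, had means in both knockdowns that were under 20% of the control mean. Tgm2 had intensities of 239, 123 and 94.4 on Jmjd2b knockdown arrays 1, 2 and 3, of 99.4 and 173 on Jmjd2c knockdown arrays 1 and 2, and of 1363, 683 and 1127 on control arrays 1, 2 and 3. The Jmjd2c knockdown arrays lay within the range of the Jmjd2b knockdown arrays, and the dimmest control array was 2.86 times the brightest Jmjd2b knockdown array and 3.95 times the brightest Jmjd2c knockdown array. Its means were 152 ± 76.6 (SD, n = 3) in the Jmjd2b knockdown, 136 ± 52.1 (SD, n = 2) in the Jmjd2c knockdown and 1058 ± 345 (SD, n = 3) in the control. On the log2 scale the change was -2.71 ± 0.34 (SE) in the Jmjd2b knockdown and -2.81 ± 0.38 in the Jmjd2c knockdown.

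Pde8a, the cyclic AMP phosphodiesterase, had intensities of 96.9, 60.6 and 141 on the Jmjd2b knockdown arrays, of 199 and 80.7 on the Jmjd2c knockdown arrays, and of 837, 587 and 763 on the control arrays. On the log2 scale the Jmjd2c knockdown arrays differed from each other more than the control arrays did (SD 0.82 against 0.26). Both Jmjd2c knockdown arrays still lay below all controls. The means were 99.5 ± 40.2 (SD, n = 3), 140 ± 83.8 (SD, n = 2) and 729 ± 128 (SD, n = 3) in the Jmjd2b knockdown, the Jmjd2c knockdown and the control. Its log2 change was -2.73 ± 0.32 (SE) in the Jmjd2b knockdown and -2.35 ± 0.36 in the Jmjd2c knockdown. Of the windows shown above, that of Pde8a is the CG-rich one.

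The 2 kinase and phosphatase inhibitors were likewise low in both knockdowns. Camk2n1, the CaMKII inhibitor, had 56.5, 29.2 and 99.5 on the Jmjd2b knockdown arrays, 110 and 70.5 on the Jmjd2c knockdown arrays, and 836, 448 and 675 on the control arrays. Jmjd2b knockdown array 2 was the lowest, at 4.47% of the control mean, and Jmjd2c knockdown array 1 was the highest of the knockdown arrays, at 16.8%. Mean intensities were 61.7 ± 35.5 (SD, n = 3), 90.2 ± 27.8 (SD, n = 2) and 653 ± 195 (SD, n = 3), and the log2 changes were -3.17 ± 0.33 (SE) in the Jmjd2b and -2.64 ± 0.37 in the Jmjd2c knockdown.

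Ppp1r14d, the PP1 inhibitor, had 29.5, 15.3 and 10.4 on the Jmjd2b knockdown arrays, 19.3 and 10.6 on the Jmjd2c knockdown arrays, and 179, 92.6 and 152 on the control arrays. In both knockdowns some arrays were thus under the 16 that was added to every value. The means were 18.4 ± 9.92 (SD, n = 3), 15.0 ± 6.18 (SD, n = 2) and 141 ± 44.4 (SD, n = 3). The log2 changes were -2.19 ± 0.26 (SE) and -2.32 ± 0.29, and their size rests on the added value: with 64 added they were -1.30 and -1.36, and with 4 added -2.74 and -2.93.

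Lrrc31 and Fam183b, the remaining genes, differed more between the knockdowns than the other 4 genes. Lrrc31 had 23.6, 13.2 and 31.3 on the Jmjd2b knockdown arrays, 91.5 and 33.4 on the Jmjd2c knockdown arrays, and 446, 279 and 455 on the control arrays. All 3 Jmjd2b knockdown arrays lay below both Jmjd2c knockdown arrays, though Jmjd2c knockdown array 2 and Jmjd2b knockdown array 3 were close to each other. Its means were 22.7 ± 9.10 (SD, n = 3), 62.5 ± 41.1 (SD, n = 2) and 393 ± 99.3 (SD, n = 3), with log2 changes of -3.40 ± 0.30 (SE) in the Jmjd2b and -2.46 ± 0.34 in the Jmjd2c knockdown.

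Fam183b had 76.5, 58.4 and 74.4 on the Jmjd2b knockdown arrays, 243 and 120 on the Jmjd2c knockdown arrays, and 498, 511 and 824 on the control arrays. The Jmjd2b knockdown arrays were close together, and both Jmjd2c knockdown arrays lay between them and the controls. The means were 69.8 ± 9.90 (SD, n = 3), 182 ± 86.6 (SD, n = 2) and 611 ± 185 (SD, n = 3). Its log2 change was -2.84 ± 0.26 (SE) in the Jmjd2b knockdown and -1.70 ± 0.29 in the Jmjd2c knockdown, the smallest of the 12 changes described here.

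**Figure D1:**
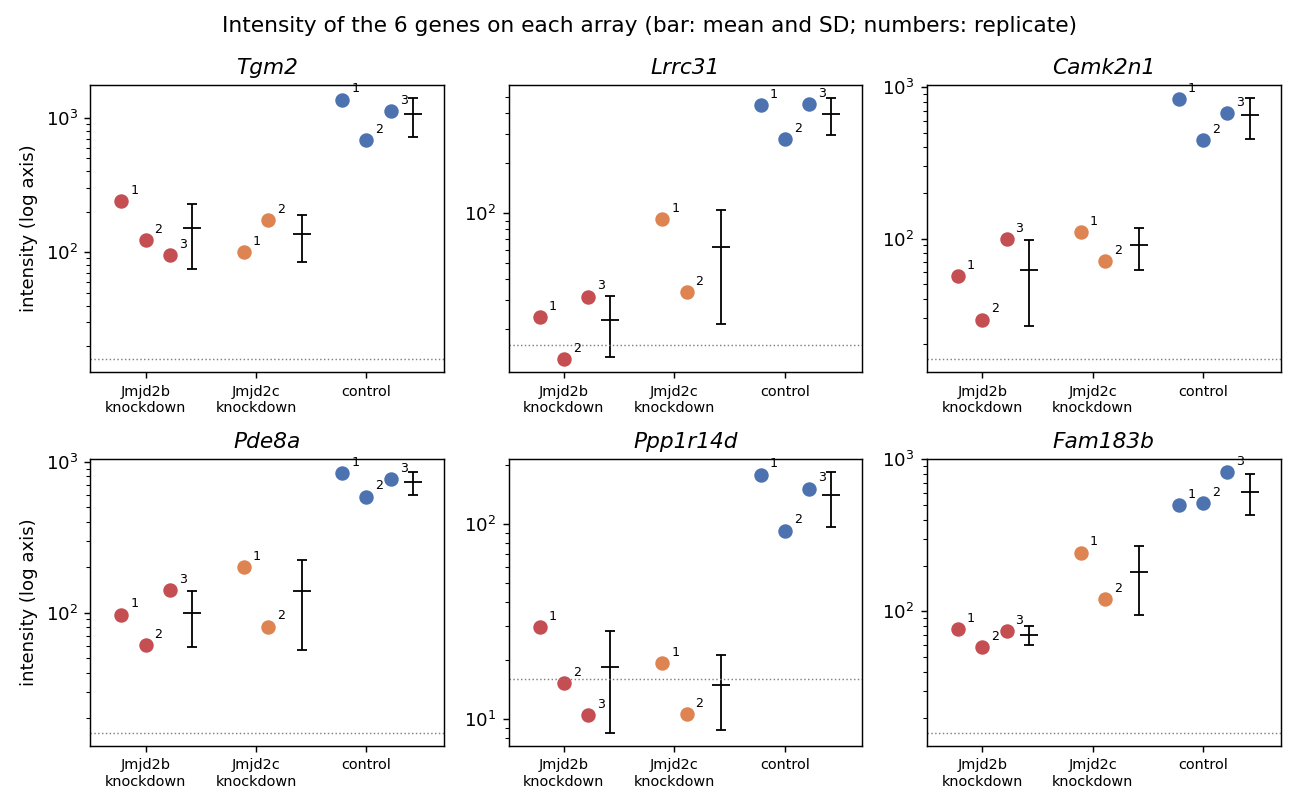
Intensity (log axis) of each of the 6 genes on every array, by group, with the replicate number beside each point, the mean and SD as a bar, and 16 as a dotted line. Every knockdown array lies below every control array of its gene; Tgm2 runs from 94.4 to 239 in the Jmjd2b knockdown against 683 to 1363 in the control.

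Over the 6 genes the median log2 change was -2.79 in the Jmjd2b knockdown and -2.40 in the Jmjd2c knockdown, against medians of -0.03 and -0.02 over all 18193 genes. All 3 Jmjd2b knockdown arrays lay below all 3 control arrays for 6 of 6 genes, which held for 23.8% of all genes. Both Jmjd2c knockdown arrays lay below all control arrays for 6 of 6 genes, and for 21.2% of all genes. Since the genes were taken for these falls, nothing is read from the counts.

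Within a group the 6 genes did not all follow the same array. Control array 2 was the dimmest control for 5 of the 6 genes, by a median of 0.46 below the control mean on the log2 scale, and Fam183b was the exception. Jmjd2c knockdown array 1 was the brighter of the 2 for 5 genes, with Tgm2 the exception. Jmjd2b knockdown array 2 was the lowest of its group for Camk2n1, Fam183b, Lrrc31 and Pde8a, and array 3 for Ppp1r14d and Tgm2. The arrays did not follow the depth of the knockdown in 1 order: Kdm4b was lowest on Jmjd2b knockdown array 3, and Kdm4c was lower on Jmjd2c knockdown array 1, where most of the 6 genes were brighter. The median change of the 6 genes from the control mean was -2.71, -3.15 and -2.64 on the Jmjd2b knockdown arrays and -2.004 and -2.71 on the Jmjd2c knockdown arrays.

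The falls in the Jmjd2b knockdown were present within each array type, while both Jmjd2c knockdown arrays are of the same type. The genes were chosen for falls on these arrays, so the values within a type are a description only. Among the 3 arrays with many values of 1, which hold 1 Jmjd2b knockdown array and 2 controls, the log2 changes in the Jmjd2b knockdown ran from -3.80 for Camk2n1 to -2.22 for Ppp1r14d. Among the other 5 arrays, which hold 1 control, they ran from -3.44 for Lrrc31 to -2.28 for Ppp1r14d in the Jmjd2b knockdown and from -2.95 for Tgm2 to -2.16 for Fam183b in the Jmjd2c knockdown. By exactly matching values, these 5 arrays were not 1 set. Control array 3 matched Jmjd2b knockdown array 1 in 0.459% of values, but Jmjd2b knockdown array 3 in 0.0488%. That control matched Jmjd2c knockdown arrays 1 and 2 in 0.0732% and 0.0621%, while those 2 matched each other in 0.621%. With Jmjd2b knockdown array 3 they matched in 0.601% and 0.599%. No control shared such a set with the Jmjd2c knockdown, whose falls could not be read within one. The cause was not tested. Over the alternatives tried, no change of the 6 genes against the control turned its sign. Genes chosen for large falls on these same arrays leave little room for such a turn, so nothing is read from this.

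**Figure D2:**
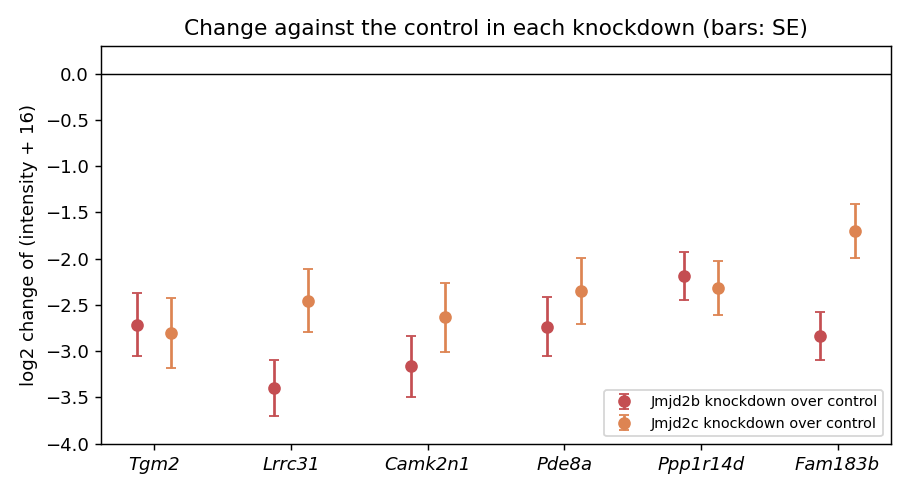
Log2 change of (intensity + 16) against the control with its SE for each of the 6 genes in the Jmjd2b knockdown (3 arrays) and the Jmjd2c knockdown (2 arrays), each set against 3 control arrays. The bars of the 2 knockdowns overlap for Tgm2, Camk2n1, Pde8a and Ppp1r14d and lie apart for Lrrc31 and Fam183b.

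The difference between the knockdowns, Jmjd2c over Jmjd2b, is made of the same changes that chose the genes, so it too is only described. The Jmjd2c knockdown was above the Jmjd2b knockdown for 4 genes and below it for 2. Fam183b had the largest difference on the log2 scale, 1.14 ± 0.29 (SE), and Lrrc31 followed with 0.94 ± 0.34. For both genes every Jmjd2c knockdown array lay above every Jmjd2b knockdown array, for Lrrc31 by only 33.4 against 31.3. The share of all genes that separate the knockdowns in this way was not counted, so nothing is read from it. Their size moved with single arrays: without Jmjd2c knockdown array 1 the differences were 0.68 for Fam183b and 0.38 for Lrrc31, and without Jmjd2c knockdown array 2 they were 1.60 and 1.502.

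For the other 4 genes the differences were 0.53 ± 0.37 (SE) for Camk2n1, 0.38 ± 0.36 for Pde8a, -0.13 ± 0.29 for Ppp1r14d and -0.09 ± 0.38 for Tgm2. The sign of 3 of them rested on single arrays, and with it the count of genes above and below. Without Jmjd2c knockdown array 1 Pde8a was at -0.19 and Tgm2 at 0.26. Tgm2 was also at 0.26 without Jmjd2b knockdown array 1. Ppp1r14d was at 0.09 without Jmjd2b knockdown array 1 and at 0.08 without Jmjd2c knockdown array 2.

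The probe sets of a gene that has several did not all show the same change. Tgm2 has 6. The one used, 1433428_x_at, carries the suffix that marks possible detection of related genes, and 1437277_x_at and 1455900_x_at with the same suffix had log2 changes of -2.85 and -2.85 in the Jmjd2b knockdown and of -2.70 and -2.84 in the Jmjd2c knockdown. The probe set 1417500_a_at, without that mark, had 137, 88.5 and 84.6 in the Jmjd2b knockdown, 90.1 and 104 in the Jmjd2c knockdown, and 573, 284 and 409 in the control, which gives -1.85 and -1.90. Its knockdown arrays too lay below all controls, with smaller changes. The probe set 1426004_a_at changed by -0.44 and -0.42, and 1438942_x_at was under 16 on all 8 arrays.

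Camk2n1 has 2 probe sets that disagree. Beside the one used, 1456609_at, the probe set 1440455_at had 76.3, 54.9 and 61.1 in the Jmjd2b knockdown, 68.2 and 57.3 in the Jmjd2c knockdown, and 86.3, 69.5 and 69.3 in the control. The Jmjd2b knockdown overlapped the control there, and the log2 changes were -0.19 and -0.21. Averaging both probe sets gave -1.68 and -1.42 for Camk2n1, so the size of its fall rests on 1456609_at. Which transcript each probe set detects was not tested. Pde8a has a second, dimmer probe set, 1418407_at, with 11.7, 13.5 and 16.8 in the Jmjd2b knockdown, 33.8 and 4.93 in the Jmjd2c knockdown, and 87.6, 68.7 and 86.6 in the control. Its knockdown arrays too lay below all control arrays, with log2 changes of -1.69 and -1.58. Lrrc31, Ppp1r14d and Fam183b have 1 probe set each, so no second reading of them exists here.

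**Figure D3:**
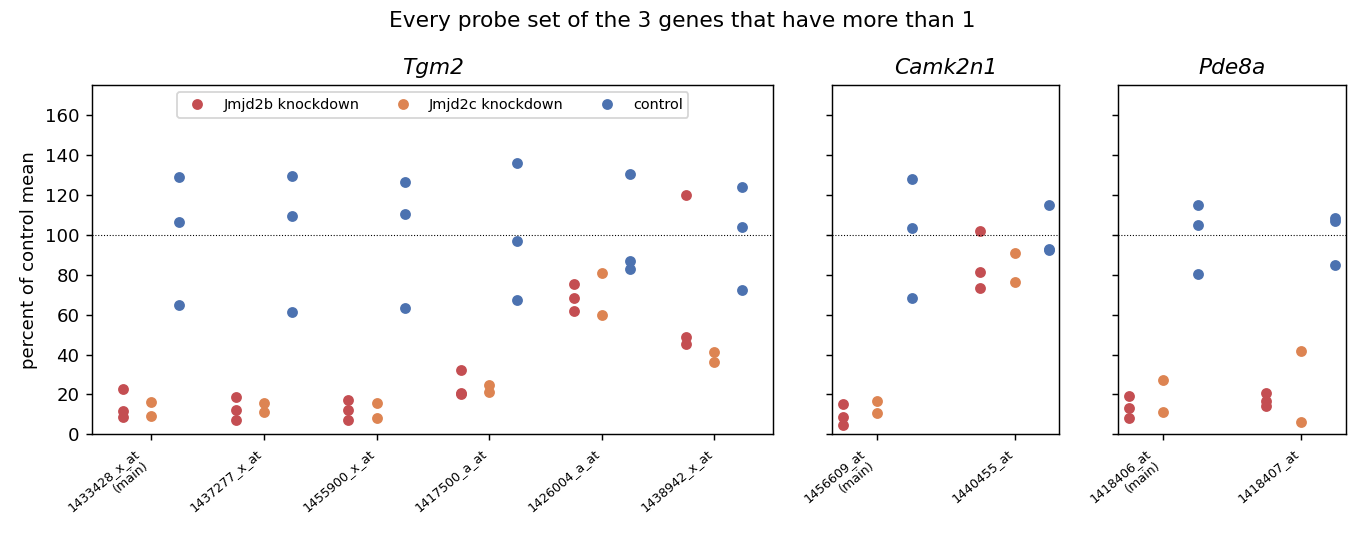
Intensity of every probe set of Tgm2, Camk2n1 and Pde8a on each array as a percentage of that probe set's control mean. For Camk2n1 the probe set used lies at 4.47% to 16.8% in the knockdown arrays, while 1440455_at lies at 73.2% to 102%.

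The 6 genes were placed among all genes by the shared fall, the less negative of a gene's log2 changes in the 2 knockdowns, over the 9096 genes whose control mean lies above the median. That filter uses the group where the 6 genes are high, and the ranks depend on it. Slc11a1, Lrrc31, Ppp1r14d, Stra8 and Dnaic2 lie below the median over all 8 arrays and were ranked only through the control. No threshold was stated for the choice of the 6 genes, and this ranking is a description of the values that chose them. Tgm2 was at rank 2 with -2.71, Camk2n1 at rank 5 with -2.64, Lrrc31 at rank 6 with -2.46, Pde8a at rank 7 with -2.35 and Ppp1r14d at rank 10 with -2.19. Fam183b was at rank 46 with -1.70, which is its change in the Jmjd2c knockdown. The genes between and just after them were Nupr1 at rank 1 (-3.14), the metal transporter Slc11a1 (-2.71), the KDEL receptor Kdelr3 (-2.70), Ndrg1 (-2.28), the meiosis gene Stra8 (-2.28), Misp3 (-2.17) and the dynein intermediate chain Dnaic2 (-2.13), so 7 of the first 12 are not among the 6.

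**Figure D4:**
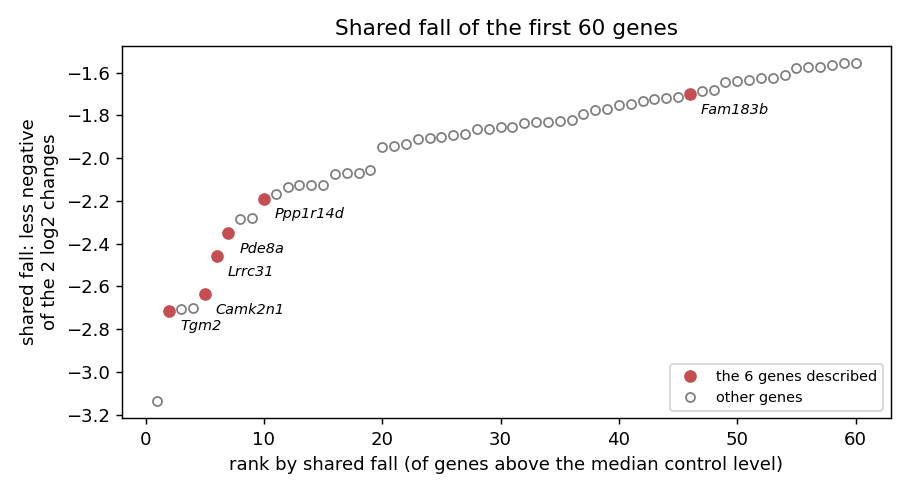
Shared fall (the less negative log2 change of the 2 knockdowns) of the first 60 of 9096 genes, with the 6 genes described as filled points. Tgm2 at rank 2 has -2.71, Ppp1r14d at rank 10 has -2.19, and Fam183b lies apart from them at rank 46 with -1.70.

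The genes most like the 6 in their course over the 8 arrays were found by the root mean square difference between centred log2 profiles. Against the mean profile of the 6 genes, Pde8a itself lay at 0.23, Camk2n1 at 0.29, Lrrc31 at 0.31, Ppp1r14d and Fam183b at 0.37 and Tgm2 at 0.49. Of genes above the median level, Misp3 (0.24), Ndrg1 (0.26), Smarcd3 (0.29), Kdelr3 (0.29), Igsf21 (0.30) and Ampd3 (0.31) were nearest. All of these outside genes lay nearer to that profile than Ppp1r14d, Fam183b and Tgm2 did. Misp3, Ndrg1, Smarcd3 and Kdelr3 lay nearer than all of the 6 but Pde8a, although the 6 make up the mean profile. With more digits, Smarcd3 lay at 0.2851 and Kdelr3 at 0.2854, against 0.2927 for Camk2n1. Misp3 had 63.6, 48.8 and 70.3 on the Jmjd2b knockdown arrays, 80.4 and 73.1 on the Jmjd2c knockdown arrays, and 417, 354 and 436 on the control arrays. The AMP deaminase Ampd3 had 63.8 ± 23.2 (SD, n = 3), 131 ± 16.2 (SD, n = 2) and 539 ± 101 (SD, n = 3), and like Fam183b it was higher on both Jmjd2c than on all Jmjd2b knockdown arrays. Likeness of profile was not tested and says nothing of shared function.

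The relatives and pathway partners of the 6 genes were read from 7 lists, with 117 of 127 listed genes measured and none of the 6 among them. In the Jmjd2b knockdown 18 of the 117 fell and 16 rose (limma, adjusted p under 0.05), or 15.4% and 13.7%, beside 12.9% and 11.5% of all genes. In the Jmjd2c knockdown 11 fell and 5 rose, or 9.40% and 4.27%, beside 5.25% and 4.28% of all genes. Read over all 7 lists, the shares in the Jmjd2b knockdown were near that background. Between the knockdowns 20 of 117 had an unadjusted p under 0.05 (limma). The share of all genes at that threshold was not taken, so nothing is read from this count. At an adjusted p under 0.05, 0 of 117 passed in limma. At that threshold 0.137% of all genes were higher and 0.33% lower in the Jmjd2c than in the Jmjd2b knockdown. With the replicate block 2 of them, Ppp1r14c and Rdh10, passed, and without Jmjd2c knockdown arrays 1 and 2 in turn 11 and 1 passed. In the Jmjd2c knockdown the count of 16 was 10 with that block, and 6 without control array 3, 9 without control array 1 and 25 without Jmjd2c knockdown array 1. The block ended the Jmjd2c calls of Tgm1, Pde3b, Prkar2a, Ppp1r14a, Ppp1r3c and Rfx2, and array type ended those of Tgm1, Pde3b, Pde9a, Prkar2a, Ppp1r3c, Rfx2 and Rsph4a. In the Jmjd2b knockdown array type ended the calls of Adcy9, Camk2b and Foxj1.

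Among the relatives of Tgm2, 0 of 7 measured transglutaminase genes passed in the Jmjd2b knockdown (limma; 1 at an unadjusted p under 0.05), with a median log2 change of -0.01. In the Jmjd2c knockdown 1 fell: Tgm1, the transglutaminase of the skin barrier, had 165 ± 66.3 (SD, n = 2), against 326 ± 15.1 (SD, n = 3) in the control (log2 change -0.97 ± 0.24; limma, adjusted p = 0.033). That call was lost without any 1 of the control arrays, Jmjd2b knockdown array 2 or Jmjd2c knockdown array 2, with values of -1.002 to -0.58, and with quantile normalization (-0.90). Of the retinoic acid pathway, named here because Tgm2 responds to it elsewhere, 2 of 18 genes fell and 3 rose in the Jmjd2b knockdown, and 2 fell and 1 rose in the Jmjd2c knockdown. Stra8 (-2.28 and -2.37) and the retinoic acid binding protein Crabp1 (-1.83 and -1.58) fell in both, and Rdh10, which makes retinal, rose in both (1.92 and 1.04). Cyp26a1 (0.90) and Dhrs3 (1.39) rose in the Jmjd2b knockdown, and are named after their values were seen. Dhrs3 averaged 16.6 in the control, near the 16 that was added. Without control array 3 Crabp1 did not pass in the Jmjd2c knockdown (-1.48), and Cyp26a1 was lost without any 1 control array or Jmjd2b knockdown array 1 or 2 (0.72 to 0.93).

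The relatives of Camk2n1 and Pde8a moved in both directions. The paralog Camk2n2 had 111 ± 15.0 (SD, n = 3), 110 ± 46.1 (SD, n = 2) and 113 ± 9.95 (SD, n = 3) in the Jmjd2b knockdown, the Jmjd2c knockdown and the control. Of 10 measured kinase and inhibitor genes, Camk1d fell in both knockdowns (-1.56 ± 0.14 and -1.61 ± 0.15, SE) and the CaMKII subunits Camk2b (0.85) and Camk2d (1.20, named after its value was seen) rose in the Jmjd2b knockdown. The call of Camk2b was lost without any 1 control array or Jmjd2b knockdown array 2 or 3 (0.67 to 0.89). The paralog Pde8b had 34.1 ± 7.55, 40.7 ± 8.04 and 34.9 ± 3.64, with log2 changes of -0.03 and 0.15 that did not pass. Of 19 other phosphodiesterases 1 fell and 2 rose in the Jmjd2b knockdown, and 1 fell and 1 rose in the Jmjd2c knockdown. Pde9a, specific for cyclic GMP, fell by 2.00 ± 0.36 and by 1.73 ± 0.40 (SE), and Pde3b rose by 0.77 and 0.60. In the Jmjd2c knockdown Pde9a was lost without control array 1 or 3 or Jmjd2c knockdown array 2 (-1.69 to -1.22), and Pde3b without any 1 array but Jmjd2b knockdown array 3 (0.53 to 0.68). Pde5a (1.30) also rose in the Jmjd2b knockdown, a value chosen after it was seen.

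Of 21 genes of cyclic AMP synthesis and protein kinase A, 4 fell and 4 rose in the Jmjd2b knockdown, and 2 fell and 1 rose in the Jmjd2c knockdown. The kinase subunit Prkar2a fell in both (-1.13 ± 0.12 and -0.59 ± 0.13, SE), as did Rapgef3, a cyclic AMP sensor (-1.72 and -1.99), and the kinase inhibitor Pkia rose in both (1.36 and 0.86). The Jmjd2c call of Prkar2a was lost without control array 2 or 3 (-0.60 and -0.53) and with the mean of its probe sets (-0.31). In the Jmjd2b knockdown Adcy3 (-0.70) and Adcy9 (-0.53) fell and Adcy7 (1.15), Creb1 (0.48) and Crem (0.74) rose. Without control array 1 or 3 or Jmjd2b knockdown array 2 Creb1 (0.41 to 0.45) and Adcy9 did not pass, and Adcy9 did not without Jmjd2b knockdown array 1 either (-0.58 to -0.44). With the mean of their probe sets Crem was at 0.01 (limma, adjusted p = 0.946) and Adcy9 at -0.28 (adjusted p = 0.0694), and neither passed. Rapgef3, Pkia, Adcy7, Adcy9 and Crem are named after their values were seen.

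The 3 paralogs of Ppp1r14d went different ways. Ppp1r14a had 73.2 ± 4.13 (SD, n = 3) in the Jmjd2b knockdown, 88.5 ± 6.91 (SD, n = 2) in the Jmjd2c knockdown and 151 ± 19.3 (SD, n = 3) in the control, and fell in both (-0.90 and -0.67; limma, adjusted p = 0.00128 and 0.025). Ppp1r14b rose in both (0.62 and 0.43), at 3566 ± 145, 3136 ± 160 and 2318 ± 135. Ppp1r14c rose in the Jmjd2b knockdown (1.67 ± 0.22, SE), at 139 ± 42.3, and had 59.8 ± 0.71 in the Jmjd2c knockdown (0.68, adjusted p = 0.118), against 32.2 ± 10.7 in the control. The Jmjd2c calls were lost without control array 3 for Ppp1r14b (0.42) and without control array 1 or 3 or Jmjd2c knockdown array 2 for Ppp1r14a (-0.67 to -0.59). The Jmjd2c call of Ppp1r14b was also lost with the mean of its probe sets (0.26) and with no trend (limma, adjusted p = 0.051). Over all 21 PP1 genes 4 fell and 4 rose in the Jmjd2b knockdown, and 2 fell and 1 rose in the Jmjd2c knockdown. The other calls were those of Ppp1r3c (-1.51 and -1.08), Ppp1r3b (-0.98), Ppp1r15a (-0.50), Ppp1r2 (0.38) and Ppp1r8 (0.27), the last 4 in the Jmjd2b knockdown, with Ppp1r3c, Ppp1r15a and Ppp1r8 named after their values were seen. Without control array 3 or Jmjd2b knockdown array 1 or 2 Ppp1r2 (0.32 to 0.37), Ppp1r8 (0.22 to 0.28) and Ppp1r15a (-0.50 to -0.38) did not pass, and Ppp1r8 and Ppp1r15a did not without control array 2 either. The Jmjd2c call of Ppp1r3c was lost without any 1 control or Jmjd2c knockdown array (-1.14 to -1.03) and was at -0.33 with the mean of its probe sets. Ppp1r2 did not pass with that mean (0.30), nor Ppp1r8 with quantile normalization (0.22) or no trend.

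Beside Fam183b, 6 of 21 motile cilia genes fell and 1 rose in the Jmjd2b knockdown, with a median log2 change of -0.15. Of all genes 12.9% fell and 11.5% rose there, with a median of -0.03. In the Jmjd2c knockdown 2 of the 21 fell and 1 rose, with a median of -0.20. Of all genes 5.25% fell and 4.28% rose there, with a median of -0.02. Dnaic2 fell in both (-2.13 ± 0.23 and -2.28 ± 0.26, SE), at 18.8 ± 6.53 (SD, n = 3), 15.99 ± 10.1 (SD, n = 2) and 138 ± 35.7 (SD, n = 3), as did the transcription factor Rfx2 (-1.25 and -0.80). The radial spoke gene Rsph1 (-0.72), Rsph9 (-0.87), Tekt1 (-1.32) and Foxj1 (-0.53), a regulator of motile cilia, fell in the Jmjd2b knockdown, and Rsph4a rose in both (0.94 and 1.01). Foxj1 averaged 17.6, 16.8 and 32.2, near the 16 that was added. Rsph4a was at 5.49 to 15.6 on the control arrays, under that 16, so the size of its rise depends on the added value. Foxj1 was lost without any 1 control array or Jmjd2b knockdown array 1 or 2 (-0.55 to -0.46). In the Jmjd2c knockdown Rfx2 was lost without any 1 control array or Jmjd2c knockdown array 2 (-0.83 to -0.62) or with the mean of its probe sets (-0.42), and Rsph4a without control array 1 or 3 or Jmjd2c knockdown array 2 (0.84 to 1.03). Rsph9, Tekt1, Foxj1 and Rsph4a are named after their values were seen.

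**Figure D5:**
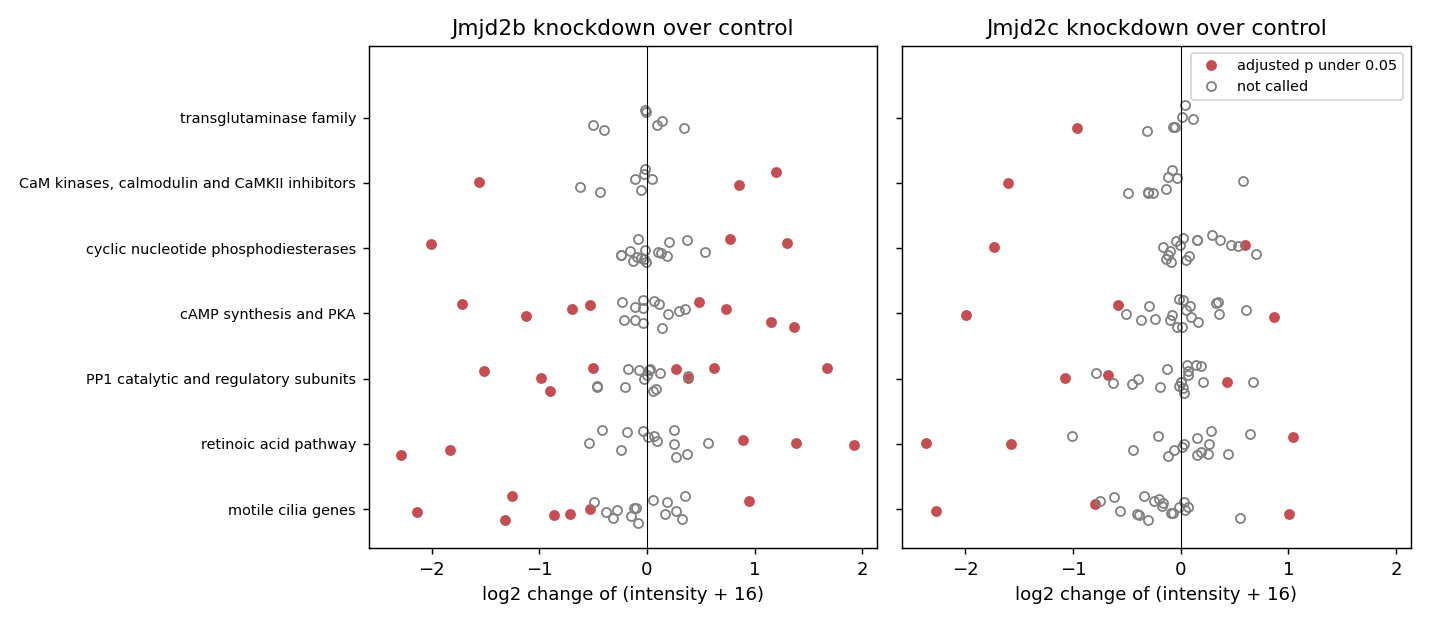
Log2 change of (intensity + 16) against the control of the 117 measured genes of the 7 lists, in the Jmjd2b knockdown (left) and the Jmjd2c knockdown (right); filled points have a limma adjusted p under 0.05. The lists hold calls on both sides of 0, with 18 genes lower and 16 higher in the Jmjd2b knockdown and 11 lower and 5 higher in the Jmjd2c knockdown.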

How the data were processed

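RNA of 8 samples was profiled on 1 oligonucleotide array each, as biotinylated cRNA from total RNA, per the labels' protocols. Each probe set has a single linear intensity as deposited by the authors. The steps for background, probe summary and scaling were not given in the sources used here. Of 45101 probe sets, 34945 carried a single symbol in the platform annotation, 932 carried more than 1, 9160 were unnamed and 64 were array controls. Groups and replicate numbers come from the sample titles.

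From these values log2(intensity + 16) was computed, with no further scaling and no filter on dim genes. The 3 groups were fitted together across 18193 genes in limma 3.58.1 (R 4.3.3; lmFit, eBayes with a trend), two-sided, with Benjamini-Hochberg adjustment over all genes and a threshold of 0.05. The fit was tested on simulated data. With 2 Jmjd2c knockdown arrays, that group takes its spread largely from the others, and the number of arrays limits precision. Tables and figures used Python 3.11.15, pandas 2.3.3 and matplotlib 3.10.9.

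The 6 genes, the lists and the alternatives were chosen with earlier results of these data known. Named are the 6 genes, the called genes of each list with paralogs, ranks 1 to 12 by shared fall among genes above the median control level, and the 6 nearest profiles. Same-numbered arrays of the Jmjd2b knockdown and the control deviated together from their group means (correlations of 0.176, 0.111 and 0.116 across genes); the labels state no pairing. Alternatives were other added values, quantile normalization, brighter genes alone, the mean of probe sets, fits of 2 groups, no trend, the replicate block, array type, and each array left out. Tgm2 without probe sets that can detect related genes was added after seeing the data. A limma test of the 6 genes between the knockdowns had been planned and is not given, because that difference consists of the values that chose the genes. Promoter sequences are from RefSeq (GRCm38.p6). Tgm2 and Camk2n1 promoters and protein sequences were not used here.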

Additional observations from a re-analysis of the deposited data

How the results depend on the processing

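The median log2 change of the 6 genes kept its sign under every alternative run. For the changes against the control, the choice of the genes by large falls left little room for anything else. In the Jmjd2b knockdown it was -2.79, and -2.34 with 64 added and -2.20 with the mean of probe sets, and in the Jmjd2c knockdown it was -2.40, and -2.74 with 4 added, -1.94 with 64 added and -1.90 with the mean of probe sets. Leaving out 1 array at a time gave -2.98 to -2.67, -2.71 to -2.004, and 0.15 to 0.88 for the difference between the knockdowns. Tgm2 changed by -1.85 and -1.90 without probe sets that can detect related genes.

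The number of genes called was 4441 in the Jmjd2b knockdown (2624 to 5615 with 1 array left out, the lowest 2 without control array 3 and, at 2747, Jmjd2b knockdown array 2) and 1733 in the Jmjd2c knockdown (462 without control array 3, 853 without control array 1 and 2919 without Jmjd2c knockdown array 1), where it was 874 with only the 2 groups fitted and 1043 with array type as a block. Between the knockdowns it was 85 (2 without Jmjd2b knockdown array 2, 28 to 67 without another array of it or the controls, 584 and 788 without Jmjd2c knockdown arrays 2 and 1), and 136 with 64 added, 2 with only the 2 groups, 145 with the replicate block and 4 with array type. Of the 117 list genes, 34 were called in the Jmjd2b knockdown (26 to 41; 18 with brighter genes alone), 16 in the Jmjd2c knockdown (6 to 25; 10 with the replicate block and 10 with array type) and 0 between them (0 to 11; 2 with the replicate block). Fits of only 2 groups ended the Jmjd2c calls of Tgm1, Pde3b and Ppp1r14a. The replicate block moved no other of these counts by over 1.5 times. Causes of these shifts were not tested, apart from the smaller number of genes or arrays that an alternative leaves by construction. Genes near 16 in intensity have log2 changes that depend on the value added.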
